A study of Mus musculus with 6 samples.

Results

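Monocytes were the cells that the authors' deposited annotation assigns to the type Mono, which gave 2454 of 61839 lung cells. The cells came from C57BL/6 mouse pups kept from birth in room air with 21% oxygen (normoxia) or in 85% oxygen (hyperoxia) and killed at postnatal day 3, 7 or 14 (P3, P7, P14). Each of the 6 combinations of age and oxygen held 6 mice, and no group carried a genetic change. Whole lungs were dissociated, the cells of each mouse were tagged with a lipid-anchored sample barcode (MULTI-seq), and the tagged cells were pooled and captured in 6 droplet libraries. These libraries made 5 pools, each with 3 normoxic and 3 hyperoxic mice per age. One pool held P3 and P7 mice and was captured in 2 libraries, while the P14 mice shared no pool with another age, so age and pool cannot be told apart for P14. The lungs were perfused through the heart before dissociation, and the annotation does not divide monocytes left in the vessels from those in the tissue.

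Monocytes are made in the bone marrow and, around birth, also in the fetal liver. Classical monocytes carry Ly6C and the chemokine receptor CCR2, which draws them into inflamed tissue, where they can become macrophages or dendritic cells. Non-classical monocytes derive mostly from classical ones, need the transcription factor NR4A1 to survive, patrol the inner wall of small vessels, and carry CX3CR1 and the Fc receptor that Fcgr4 encodes. Ace, which encodes angiotensin-converting enzyme, and Treml4 are further markers of the non-classical kind. High oxygen injures the developing lung and brings in inflammatory cells.

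The label was checked against 5 markers of monocytes and Treml4. Summed over the monocytes of a mouse, Ly6c2 stood at 343 ± 134 CPM (counts divided by all monocyte UMIs of that mouse and multiplied by 1000000; SD over 35 mice), Fcgr4 at 216 ± 65.4 CPM and Treml4 at 230 ± 76.0 CPM, each the highest of the 31 cell types with enough cells to rank. The levels of Ly6c2 in one neutrophil cluster (327 ± 96.7 CPM) and in CD8 T cells (316 ± 144 CPM) lay within the spread of the monocytes. Ccr2 had rank 3 with 517 ± 229 CPM, after gamma delta T cells and type 2 innate lymphoid cells, and Ace had rank 4 with 173 ± 65.7 CPM, after 3 endothelial types. Nr4a1, an immediate early gene that many cells use, had rank 2 with 1109 ± 292 CPM. After each cell was thinned to 1000 UMIs, Ly6c2 was found in 20.6% of monocytes and Fcgr4 in 21.2%, against 0.0277% and 0.0462% of the Col13a1+ fibroblasts, which should lack both (median depth before thinning 4321 and 4657 UMIs). The corresponding shares for Nr4a1 were 62.9% and 33.2%, so its presence did not set monocytes apart.

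A mouse contributed 6 to 135 monocytes and 36135 to 760991 monocyte UMIs. The hyperoxic P7 mouse numbered 5 had 125 cells in all and 6 monocytes, and it was left out of every comparison of genes, which rested on 35 mice. Depth differed between pools and, at P14, with oxygen: the median UMIs per monocyte lay between 3009 and 3432 in normoxic and between 4140 and 5163 in hyperoxic P14 mice (difference 1440, exact permutation test, two-sided, p = 0.00216, the smallest this design allows, adjusted p = 0.00649 over 3 ages). Among all cells, 394 cell barcodes occurred in more than 1 library, and 33 monocytes carried one of them. The sample barcode of the assigned mouse was the most frequent one in 2387 of the 2454 monocytes.

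Monocytes made up 4.18% ± 0.756 of the cells of a normoxic mouse at P3, 5.87% ± 0.708 at P7 and 2.44% ± 0.990 at P14 (SD, n = 6). With age in normoxia the share rose by 1.69 percentage points from P3 to P7 (exact permutation test, two-sided, adjusted p = 0.0368 over all cell types and pairs of ages) and fell by 3.43 from P7 to P14 (adjusted p = 0.0170). In hyperoxia the means were 3.60% ± 0.809, 4.69% ± 1.64 and 3.97% ± 1.03, and no step between ages passed the test (adjusted p of at least 0.482).

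At P14 the share was 1.26% to 4.10% in normoxic mice (median 2.23%) and 3.00% to 5.72% in hyperoxic mice (median 3.50%). The groups overlapped, and the mean difference of 1.53 percentage points did not pass the correction (exact permutation test, p = 0.0281, adjusted p = 0.106 over 34 cell types and 3 ages). It had the same sign in both P14 pools, from 1.81% to 3.71% in pool 1 and from 3.07% to 4.24% in pool 2. As a share of the myeloid cells alone, monocytes made up 17.4% ± 6.40 and 18.1% ± 3.47 of the P14 groups. At P3 and P7 the differences were -0.589 and -1.18 percentage points (adjusted p = 0.483 and 0.334). The change in the oxygen effect from P7 to P14 was 2.71 percentage points (permutation of oxygen labels within ages, p = 0.00552, adjusted p = 0.128), so the difference between ages did not pass the correction either.

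**Figure D1:**
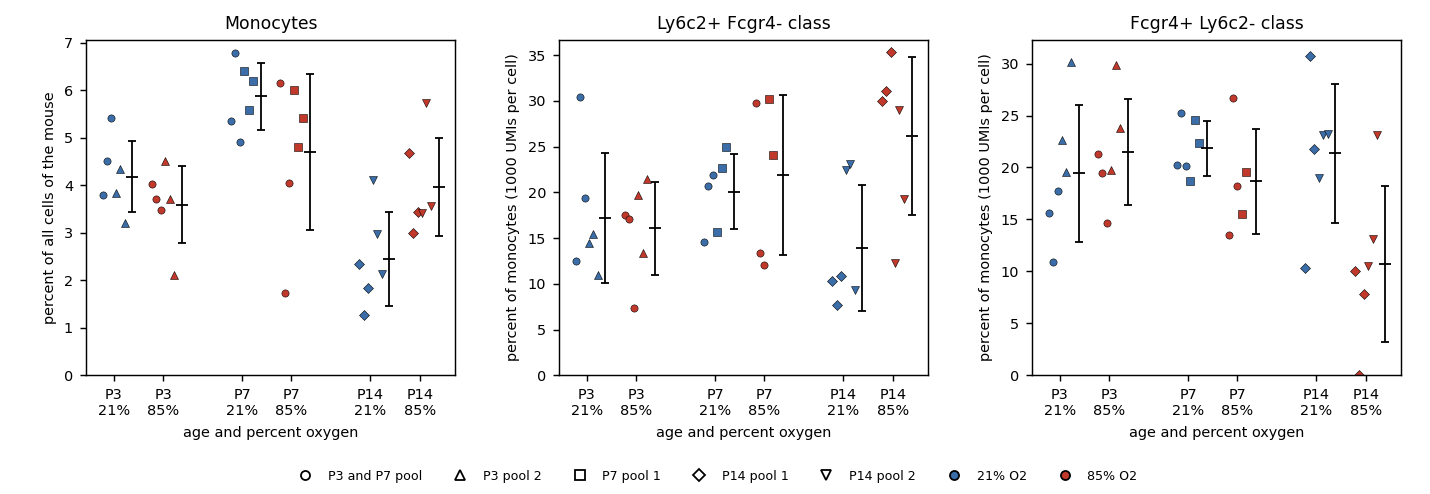
Share of monocytes among all cells of a mouse (left) and of the Ly6c2+ Fcgr4- and Fcgr4+ Ly6c2- classes among its monocytes at 1000 UMIs per cell (middle and right), in percent, by age and oxygen. Each symbol is 1 mouse, its shape the pool, its colour the oxygen level, and the bar beside each group is the mean with the SD; at P14 the normoxic mice have a mean of 2.44% and the hyperoxic mice of 3.97% monocytes, with overlap.

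To follow the classical and non-classical kinds within the 1 cluster, monocytes thinned to 1000 UMIs were put in classes by the presence of Ly6c2 and Fcgr4. Of 2401 cells with this depth, 476 had Ly6c2 alone, 454 had Fcgr4 alone, 33 had both and 1438 had neither, so most monocytes could not be placed by these genes at this depth. The classes are cuts through a range and not cell types. The 2 classes nevertheless differed in many other genes. Among 18 mice with at least 10 cells of each, 145 of 252 genes passed the test (edgeR's quasi-likelihood test with the mouse as a term, adjusted p below 0.05, 57.5% of genes tested), 76 higher in the Fcgr4+ cells (30.2%) and 69 higher in the Ly6c2+ cells (27.4%). Only 2 normoxic and 2 hyperoxic P14 mice were among these 18, and 6 were normoxic P7 mice. Each of the 5 tested members of a list of classical genes was higher in the Ly6c2+ cells. They were Fn1, which encodes fibronectin (log2 difference -2.51 ± 0.23), Hp, Cd14, Lyz2 and Plac8. Each of the 4 tested members of a non-classical list was higher in the Fcgr4+ cells, namely Gngt2, a G protein subunit (3.28 ± 0.19), Pou2f2, a transcription factor (2.49 ± 0.23), Nr4a1 (0.97 ± 0.12) and Cebpb. The MHC class I genes H2-K1 (1.46 ± 0.13), H2-D1 (1.15 ± 0.08) and B2m (1.01 ± 0.11) were higher in the Fcgr4+ cells, and so were Il1b, which encodes interleukin 1 beta, and the integrin gene Itga4 (1.82 ± 0.13). Transcripts of other cells moved with the classes as well: Sftpc of alveolar type 2 cells (0.77 ± 0.12) and Scgb1a1 of club cells (0.49 ± 0.16) were higher in the Fcgr4+ cells and S100a8, abundant in neutrophils, was lower (-2.52 ± 0.25), and their part in the result was not tested.

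At P14 the Ly6c2+ class made up 13.9% ± 6.90 of the monocytes of normoxic and 26.1% ± 8.61 of those of hyperoxic mice, and the Fcgr4+ class 21.4% ± 6.69 and 10.8% ± 7.51 (SD, n = 6). Both differences, of 12.2 and -10.6 percentage points, missed the threshold after correction (exact permutation test, p = 0.0325 and 0.0390, adjusted p = 0.156 for each over 4 classes and 3 ages). One hyperoxic mouse had no Fcgr4+ cell among 29 monocytes, which allows a share of up to 10.3% by counting error alone. In pool 1 the Ly6c2+ class went from 9.63% to 32.1% and in pool 2 from 18.3% to 20.2%, and the Fcgr4+ class went from 20.96% to 5.95% and from 21.8% to 15.6%, so the size of the difference depended on the pool. With cells thinned to 2000 UMIs, or with oxygen labels permuted within pools, both differences kept their sign and did not pass either. Without thinning the differences were 17.4 and -19.0 (exact permutation test, adjusted p = 0.0130 for each). In that setting cells with both genes also rose, by 11.6 points (adjusted p = 0.0173), while hyperoxic P14 monocytes were the deeper ones. At 1000 UMIs, classes were also set by Ly6c2 or Ccr2 against Fcgr4 or Ace, a split chosen after seeing the data. The differences were then 22.8 and -16.9 points (exact permutation test, adjusted p = 0.0130 for each), and neither class overlapped between the oxygen groups. Ly6c2, Ccr2 and Ace are themselves among the genes called at P14 in these mice. This split therefore partly restates their changes and is not separate support for a shift of classes. At P3 and P7 the differences in the Ly6c2+ and Fcgr4+ classes set by Ly6c2 and Fcgr4 alone, at 1000 UMIs, were between -3.19 and 2.03 points (adjusted p of at least 0.499). Cells with both genes differed by -0.333 points at P3 and -1.09 at P7 (exact permutation test at P7, p = 0.0325, adjusted p = 0.156). Cells with neither gene differed by -0.588 points at P3 and 2.45 at P7, and neither difference passed.

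The oxygen effect on gene expression was then tested in the summed UMIs of each mouse, with the 6 groups in 1 fit. A call required an edgeR adjusted p under 0.05 and a UMI of the gene in 10% or more of the monocytes in one of the groups compared. At P3, 1 of 4574 genes was called (0.0219%), Wfdc17, which encodes a small secreted protein with a WAP domain, with 372 genes at an unadjusted p under 0.05 and 12 calls by DESeq2. At P7 no gene was called by edgeR (0.0%) or by DESeq2, with 244 genes at an unadjusted p under 0.05. At P14, 321 genes were called (7.02%), 166 higher (3.63%) and 155 lower (3.39%) in hyperoxia. In 139 of the 321 the 6 hyperoxic mice did not overlap with the 6 normoxic mice, as in 173 of all 4574 genes tested (3.78%), a count that the choice of called genes raises.

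The number of calls depended on the pool. With the 3 normoxic and 3 hyperoxic mice of P14 pool 1 left out, 25 genes were called, 23 of them among the 321, and without pool 2, 163 were called, 138 of them among the 321. Of the P14 calls named in the following paragraphs, Plac8, Spn, Treml4, Ifi27l2a, Ccr1, Ctss, Ctsc, Wfdc17 and S100a8 passed without pool 1, and of these S100a8 did not pass without pool 2 (edgeR adjusted p = 0.063). Ccr2, Ace, Hp, Cx3cr1, Itgal, Itga4, Cxcr4, Klf2, Fabp4, Ldha, Ccl6, Gpx1, Bbc3, Oas3, H2-K1, Irf7, Ifi204, Rtp4, S100a9, Wfdc21 and Lcn2 passed with both pools together and with neither alone. For Ccr2 the edgeR adjusted p was 0.40 without pool 1 and 0.080 without pool 2, and for Ace 0.38 and 0.052. In a setting called equal depth below, the summed counts of each mouse were thinned in proportion to a median of 2544 UMIs per monocyte. Single cells were not thinned, and the mice of P3 pool 2, which lay below that median, kept their counts. In this setting 232 genes were called at P14, 200 of them among the 321. The markers of other cells that moved with oxygen at P14 are given with the neutrophil genes further on.

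Of 15 classical monocyte genes, all tested, 7 rose at P14 and 0 fell, with a median log2 change of 0.53 against -0.02 over all genes tested. Of 17 tested non-classical genes, 11 fell and 0 rose, with a median of -0.72. Over all genes tested 3.63% rose and 3.39% fell. Without pool 1, 1 classical gene (Plac8) and 2 non-classical genes (Spn and Treml4) were called, and without pool 2, 4 and 6. The medians kept their signs, at 0.84 and -0.60 without pool 1 and 0.29 and -0.75 without pool 2.

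Ly6c2 lay between 168 and 277 CPM in the normoxic P14 mice (median 264) and between 334 and 863 CPM in the hyperoxic mice (median 438). The groups did not overlap, and Ly6c2 rose by 1.02 ± 0.22 on the log2 scale (fitted log2 fold change and SE, edgeR adjusted p = 0.0029). Ccr2 lay between 349 and 766 CPM (median 549) in normoxia and between 738 and 1050 CPM (median 948) in hyperoxia, a change of 0.80 ± 0.21 (adjusted p = 0.013) with 1 normoxic mouse inside the hyperoxic range. At P3 and P7 the log2 changes were 0.11 ± 0.22 and 0.35 ± 0.21 for Ly6c2 and 0.30 ± 0.22 and 0.01 ± 0.21 for Ccr2, and none of these passed the test. Plac8, among the most abundant transcripts of monocytes, went from a median of 3935 CPM to 6956 CPM with no overlap (0.95 ± 0.14, adjusted p = 1.8e-05), and its oxygen effect differed between P14 and P7 by 1.15 ± 0.20 (adjusted p = 0.0022). The haptoglobin gene Hp rose by 0.82 ± 0.18, Ms4a4c by 1.40 ± 0.27 and Mgst1 by 0.53 ± 0.13. Chil3 (0.48 ± 0.57), Cd14 (0.47 ± 0.23) and Lyz2 (0.20 ± 0.15) were tested and did not pass.

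Nr4a1 lay between 1378 and 1873 CPM in normoxic P14 monocytes (median 1503) and between 915 and 1066 CPM in hyperoxic ones (median 973), so the groups did not overlap. It fell by 0.65 ± 0.13 on the log2 scale (edgeR adjusted p = 0.00087). Ace fell from a median of 262 CPM to 138 CPM (-0.91 ± 0.23, adjusted p = 0.012), with a single hyperoxic mouse at 207 CPM inside the normoxic range of 189 to 276 CPM and another at 18.4 CPM. Fcgr4 itself stood at a median of 195 CPM and 152 CPM and did not pass (-0.42 ± 0.22, adjusted p = 0.29). Treml4, a receptor that marks non-classical monocytes, fell by 1.17 ± 0.18 (adjusted p = 4e-05), and the sialoglycoprotein gene Spn (CD43) by 1.35 ± 0.18 (adjusted p = 9.2e-06), with no overlap for either. Cx3cr1, the receptor for the endothelial chemokine fractalkine, fell by 0.72 ± 0.18, the scavenger receptor gene Cd36 by 1.36 ± 0.27, the integrin gene Itgal by 0.58 ± 0.13 and Pou2f2 by 0.73 ± 0.14. Klf2 and Klf4, transcription factors of quiescent and non-classical monocytes, fell by 0.58 ± 0.18 and 0.61 ± 0.14. Nr4a1, Klf2 and Klf4 were also the 3 genes that fell in the list of immediate early and heat shock genes, of which 23 were tested, 18 lay below 0 and 2 rose, with a median of -0.28. Bcl2, the survival gene, fell by 1.63 ± 0.34 (adjusted p = 0.0019), but was at -0.93 without pool 1 (adjusted p = 0.46).

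**Figure D2:**
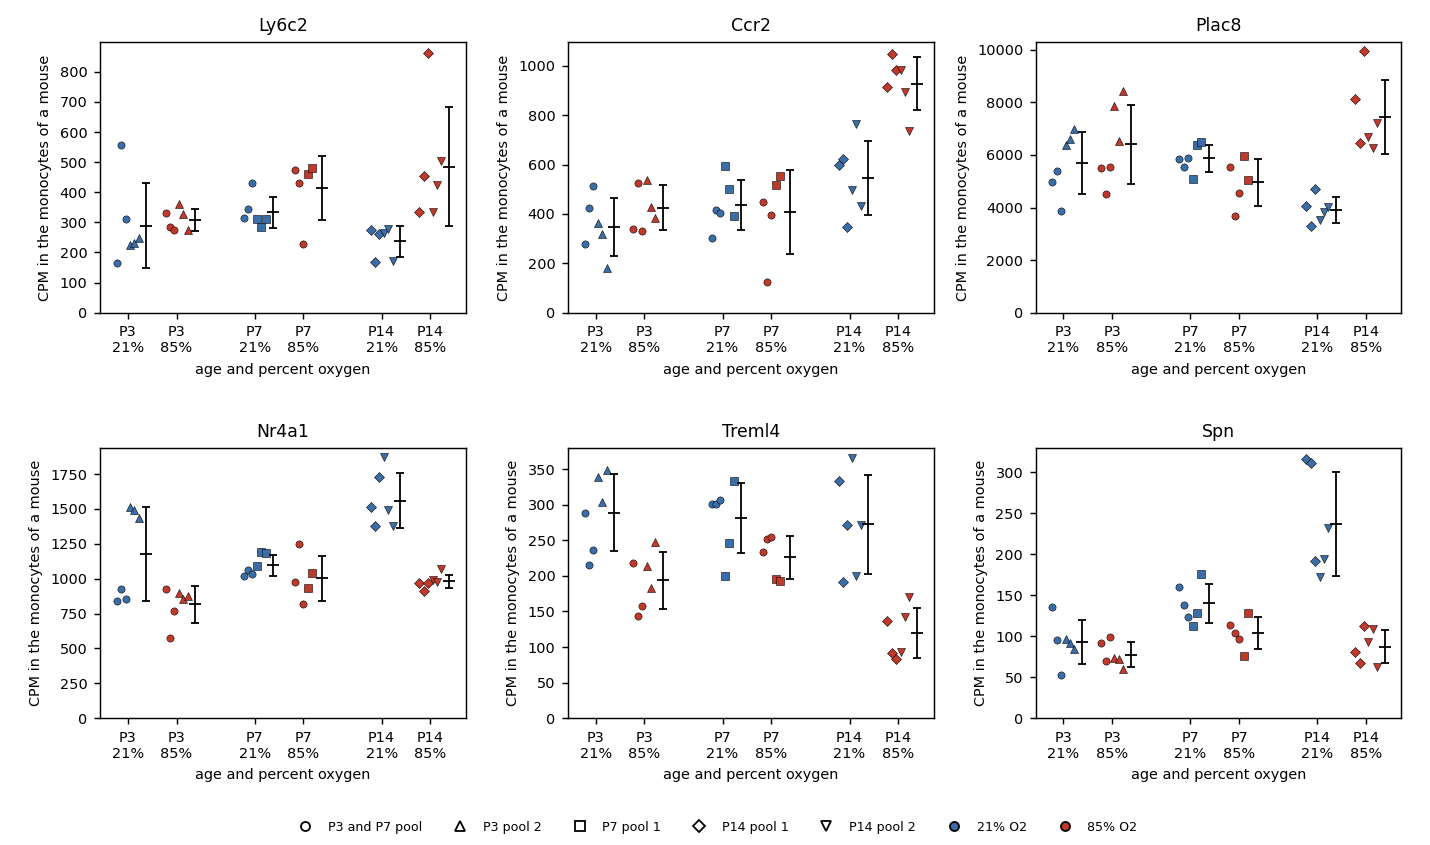
Level of 3 classical (Ly6c2, Ccr2, Plac8) and 3 non-classical (Nr4a1, Treml4, Spn) genes in the monocytes of each mouse, in CPM of its monocyte UMIs, by age and oxygen. Symbols are mice, shapes are pools, and bars give the mean and SD; at P14 the hyperoxic mice lie above the normoxic ones for Ly6c2 (medians 438 and 264 CPM) and below them for Nr4a1 (973 and 1503 CPM).

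The genes that separate the classes were then followed in the P14 comparison. Of the 69 genes higher in the Ly6c2+ class, 20 rose and 0 fell at P14, and of the 76 higher in the Fcgr4+ class, 5 rose and 11 fell, against 166 and 155 of all 4574. The median log2 changes were small, at 0.027 and -0.12 for these genes and -0.018 for all genes tested. The class genes came from only 252 genes that passed a filter on thinned sums, which kept abundant genes. All 4574 genes are therefore not a matched background, and the share called among the 252 was not computed. The class comparison and the P14 comparison also share monocytes, so these counts are a description. Within the classes few genes passed: with all ages in 1 fit, 2 of 1774 genes were called in the Ly6c2+ class (0.113%, 21 mice), Slpi, a protease inhibitor, higher by 1.41 ± 0.26 (1 gene, 0.0564%), and Hpgd, the prostaglandin-degrading dehydrogenase, lower by 1.52 ± 0.29 (1 gene, 0.0564%). In the Fcgr4+ class no gene of 899 was called by edgeR or DESeq2 (0.0%, 24 mice), with 72 at an unadjusted p under 0.05. Few P14 mice entered these fits: 2 normoxic and 4 hyperoxic mice for the Ly6c2+ class, and 4 and 2 for the Fcgr4+ class. The P14 change within a class was not tested on its own, so these counts do not show whether it is present there.

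Interferon-stimulated genes rose at P14. Interferons signal through STAT and IRF factors, which bind response elements in the promoters of genes that restrict viruses and raise antigen presentation. Of 20 listed genes 13 were tested, and 9 of these rose (Isg15, Ifitm3, Irf7, Mx1, Bst2, Zbp1, Rtp4, Ifi204 and Ifi27l2a) and 0 fell, with a median log2 change of 1.32. Over all genes tested 3.63% rose and 3.39% fell. The 250 bases before the transcription start were searched on both strands for the element known as ISRE, here 2 copies of GAAA with any 2 bases between them, in RefSeq's promoters of the GRCm38.p6 build. It was found in at least 1 promoter of 3.46% of all 27025 genes and of 6 of the 13 genes of the list that had a promoter in the table. Of those 13 genes, 4 were called at P14, and the 2 of these that carry the element are shown here for that reason. Each is a stretch of 60 bases on the gene's minus strand, with its matches to this element, which may overlap, in capitals. The Isg15 stretch covers chr4:156200850-156200909 and ends 32 bases before the start, and the Bst2 stretch covers chr8:71537562-71537621 and ends 90 bases before it.
Isg15: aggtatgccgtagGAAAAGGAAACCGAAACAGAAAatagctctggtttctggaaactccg
Bst2: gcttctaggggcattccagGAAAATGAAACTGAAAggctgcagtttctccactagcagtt
A second element, GAS, here TTC and GAA with any 3 bases between them, was in 8.13% of all genes and in 2 of the 13. A match describes the letters and not the binding of a factor.

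Isg15, a ubiquitin-like protein that is attached to other proteins, lay between 23.9 and 59.9 CPM in normoxic P14 mice (median 34.6) and between 48.3 and 315 CPM in hyperoxic mice (median 129). Its log2 change was 1.96 ± 0.45 (edgeR adjusted p = 0.0043), and the 3 hyperoxic mice of pool 1 (161 to 315 CPM) lay above those of pool 2 (48.3 to 96.0 CPM), which overlapped with normoxia. Bst2, whose product tethers budding viruses, rose from a median of 95.1 CPM to 244 CPM with no overlap (1.32 ± 0.25, adjusted p = 0.00063). Ifi27l2a lay between 335 and 765 CPM in normoxia and between 1704 and 2237 CPM in hyperoxia (1.66 ± 0.23, adjusted p = 9.5e-06). It was the 1 list member still called without pool 1, where the list's median was 0.85, while 6 of 15 tested members were called without pool 2, with a median of 1.53. Outside the list the guanylate-binding protein genes Gbp2 (3.15 ± 0.82) and Gbp3 (3.25 ± 0.75), Oas3 (2.07 ± 0.50) and Ifi47 (2.54 ± 0.68) also rose. None of these 4 passed without pool 1, where Gbp3 was at 2.02 and Ifi47 at 1.52, and Oas3 did not pass without pool 2 either (adjusted p = 0.059). Isg15 was at 0.81, Bst2 at 0.86 and Mx1 at 0.48 without pool 1.

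The rise was tested against P7, and the difference passed for 8 of the 13 listed genes, all with the larger effect at P14 (55 of 4574 genes called in that test, 1.2%, 44 of them higher, or 0.962%). Isg15 differed by 2.72 ± 0.57 (edgeR adjusted p = 0.0074), Zbp1 by 1.81 ± 0.36 (0.0063) and Ifi27l2a by 1.73 ± 0.33 (0.0038). None of the 13 passed in the test against P3, in which Ctsc was the only call (0.0219%). The levels of the other groups show where P14 stood. Isg15 had medians of 115 and 83.2 CPM at P3 in normoxia and hyperoxia and of 108 and 50.5 CPM at P7, so the normoxic P14 mice had the lowest median of the 6 groups and the hyperoxic P14 mice the highest. In normoxia 4 of the 13 genes fell from P7 to P14 (2.71% of all genes fell there), Isg15, Ifitm3, Bst2 and Ifi27l2a. These tests share the P14 mice, and no pool holds P7 and P14 mice.

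Antigen presentation genes moved at the same age. MHC class I molecules show peptides that the immunoproteasome cuts and the TAP transporter carries, and MHC class II molecules show peptides from engulfed material to helper T cells. Of 10 tested class I genes 6 rose at P14 (H2-K1, Tap1, Psmb8, Psmb9, Psme1 and Psme2) and 0 fell, with a median log2 change of 0.69, or 0.34 without pool 1. Over all genes tested 3.63% rose and 3.39% fell. Psmb8, an immunoproteasome subunit, lay between 218 and 323 CPM in normoxia (median 266) and between 357 and 649 CPM in hyperoxia (median 460), without overlap (0.93 ± 0.18, edgeR adjusted p = 0.00063), and Tap1 rose by 1.70 ± 0.38 (adjusted p = 0.0033). The oxygen effect was larger at P14 than at P7 for 5 of the 10, for Tap1 by 2.25 ± 0.48 and for Psmb8 by 1.14 ± 0.24. In normoxia the level was lower at P14 than at P7: 7 of the 10 fell between these ages (2.71% of all genes fell), Psmb8 by 1.02 ± 0.17 from a P7 median of 547 CPM.

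Of 8 tested class II genes 5 rose at P14 (H2-Aa, H2-Ab1, H2-DMa, H2-DMb1 and Cd74), against 3.63% of all genes. The median was 1.35, which was 0.24 without pool 1 and 2.23 without pool 2. Cd74, the invariant chain that guides class II molecules, lay between 79.6 and 527 CPM in normoxia (median 250) and between 374 and 2235 CPM in hyperoxia (median 640), and the groups overlapped. It rose by 1.75 ± 0.39 (edgeR adjusted p = 0.0033), but the hyperoxic mice of pool 1 had 848 to 2235 CPM and those of pool 2 had 374 to 432 CPM, inside the normoxic range of pool 2 (79.6 to 527 CPM). Without pool 1 its change was 0.25 and no class II or class I gene was called, and without pool 2 its change was 3.02 and 5 genes of each list were called. H2-Ab1, which was near 0 at P3 (medians 1.59 and 2.08 CPM), reached a median of 87.4 CPM in normoxic and 281 CPM in hyperoxic P14 mice (1.96 ± 0.49, adjusted p = 0.0096), a change of 0.17 without pool 1 and 3.96 without pool 2. In hyperoxia 4 of the 8 class II genes rose from P7 to P14 (1.16% of all genes rose there), H2-Ab1 by 4.45 ± 0.58.

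**Figure D3:**
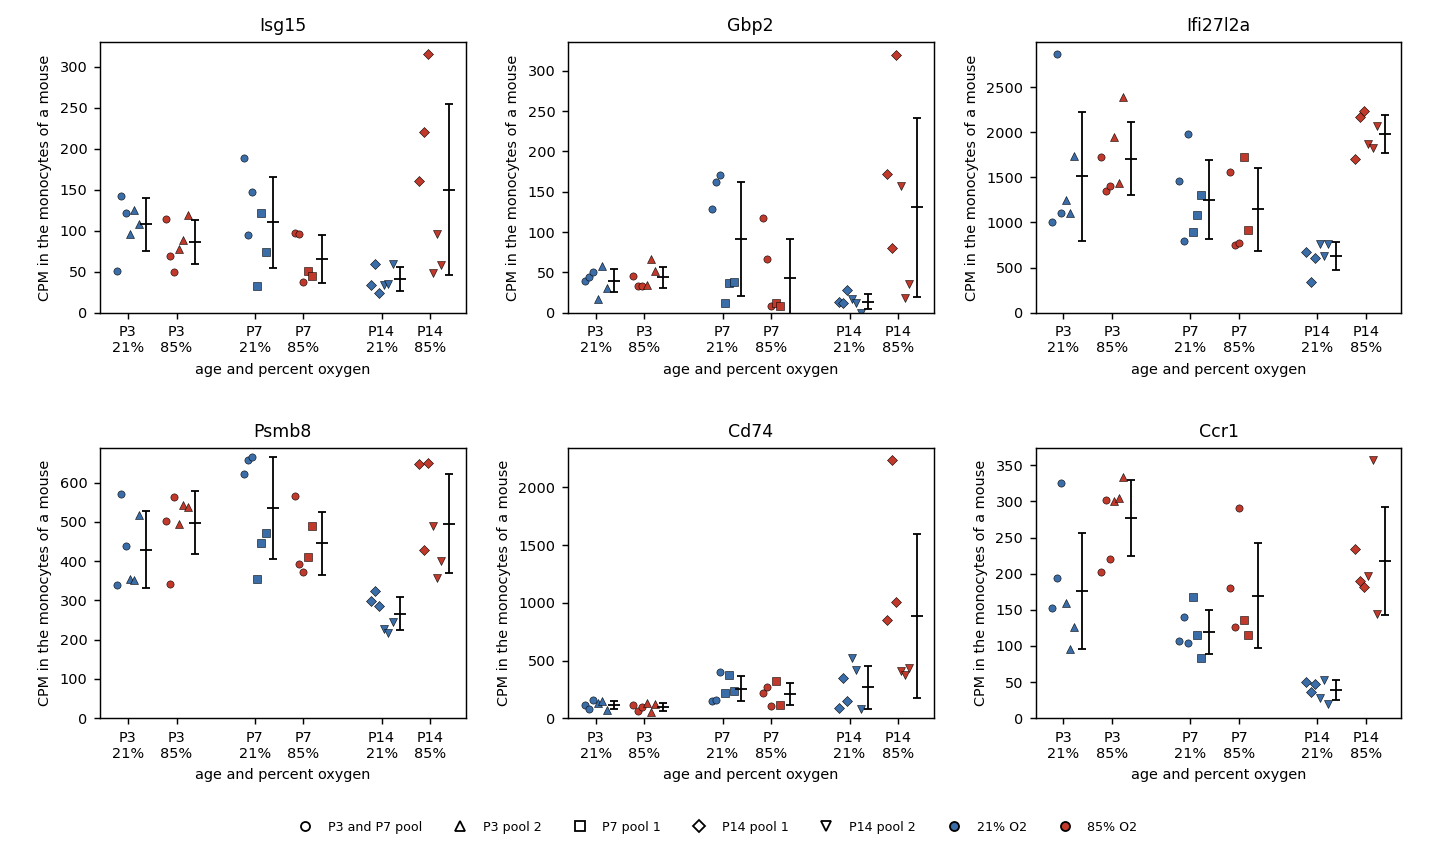
Level of the interferon-stimulated genes Isg15, Gbp2 and Ifi27l2a, of the antigen presentation genes Psmb8 and Cd74 and of the chemokine receptor gene Ccr1 in the monocytes of each mouse, in CPM, by age and oxygen. Shapes mark pools and bars the mean and SD; the hyperoxic P14 mice of pool 1 (diamonds) have 848 to 2235 CPM of Cd74 and those of pool 2 (triangles) 374 to 432 CPM, while Ifi27l2a is at 1704 CPM or more in both.

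Chemokine receptors changed in both directions. Ccr1, a receptor for inflammatory CC chemokines, lay between 19.9 and 53.1 CPM in normoxic P14 monocytes (median 41.8) and between 144 and 357 CPM in hyperoxic ones (median 194). It rose by 2.48 ± 0.33 (edgeR adjusted p = 9.2e-06), was called without either pool, and its oxygen effect was larger than at P7 by 1.94 ± 0.42 (adjusted p = 0.0089). Cxcr4, the receptor that holds leukocytes in the bone marrow, fell by 0.86 ± 0.23, and the integrin gene Itga4 by 0.56 ± 0.13. In all, 4 of 16 tested receptor and adhesion genes rose and 4 fell, against 3.63% and 3.39% of all genes.

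Of 14 tested cytokine and chemokine genes 4 rose at P14, against 3.63% of all genes, with a median of 0.65. Without pool 1 none was called and the median was 0.35. Il1b went from a range of 539 to 1344 CPM (median 1062) to one of 1610 to 2603 CPM (median 2348), with no overlap (1.20 ± 0.23, edgeR adjusted p = 0.00063). Ccl2, the ligand of CCR2, rose by 1.95 ± 0.46 with medians of 36.3 and 187 CPM and overlapping groups, Osm by 0.94 ± 0.24 (0.46 without pool 1) and Ccl6 by 0.43 ± 0.13. None of 12 tested NF-kB target and feedback genes was called at P14 (median -0.14). Socs3, which dampens cytokine signalling, rose by 1.22 ± 0.26 and Ier3 by 1.93 ± 0.31. Csf2rb, the shared beta chain of the GM-CSF, IL-3 and IL-5 receptors, rose by 0.73 ± 0.19.

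Of 17 tested genes of phagocytosis and the lysosome 6 rose at P14 and 0 fell (median 0.41), against 3.63% and 3.39% of all genes. Only 1 of them was called without pool 1, and 4 were called without pool 2. Ctss, a cysteine protease that trims class II peptides, lay between 1054 and 1362 CPM in normoxia and between 1543 and 1889 CPM in hyperoxia (0.53 ± 0.08, edgeR adjusted p = 6.4e-05) and was called without either pool. Fcgr1, the high-affinity IgG receptor, rose by 1.56 ± 0.26, and its effect exceeded that at P7 by 1.68 ± 0.34. Ctsc, a protease that activates the granule enzymes of leukocytes, rose from a median of 396 CPM to 808 CPM (1.07 ± 0.14, adjusted p = 9.2e-06) and was the 1 gene whose effect differed from that at P3 (1.04 ± 0.20, adjusted p = 0.023). Fabp5, which carries fatty acids, rose by 1.21 ± 0.33 (0.71 without pool 1), and Fabp4 fell by 1.96 ± 0.49.

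Genes of metabolism and stress were examined next. Of 24 tested genes of oxidative phosphorylation 6 rose at P14 (3.63% of all genes rose), among them Cox8a (0.41 ± 0.09) and Uqcrq (0.44 ± 0.12, and 0.24 without pool 1), with a median of 0.30. None of the 24 was called without pool 1, and only Cox8a and Uqcrq were called without pool 2. Of 17 tested antioxidant and NRF2 target genes 2 rose, Txn1 (0.53 ± 0.10) and Gpx1 (0.28 ± 0.09). Without pool 1 no gene of this list was called, and without pool 2 Txn1 alone was. Hmox1, heme oxygenase, was at medians of 214 and 90.9 CPM at P14 and of 169 and 353 CPM at P7. It passed at neither age, yet the change between the ages passed (-2.27 ± 0.55, edgeR adjusted p = 0.024). Of 14 tested glycolysis and hypoxia genes Ldha rose (0.60 ± 0.13). Of 8 tested p53 targets 0 rose and 1 fell (3.39% of all genes fell), the apoptosis gene Bbc3 (-1.08 ± 0.33, and -0.67 without pool 1), and Cdkn1a did not pass (0.31 ± 0.13). None of 11 tested cell cycle genes and none of 9 complement, coagulation and matrix genes was called.

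**Figure D4:**
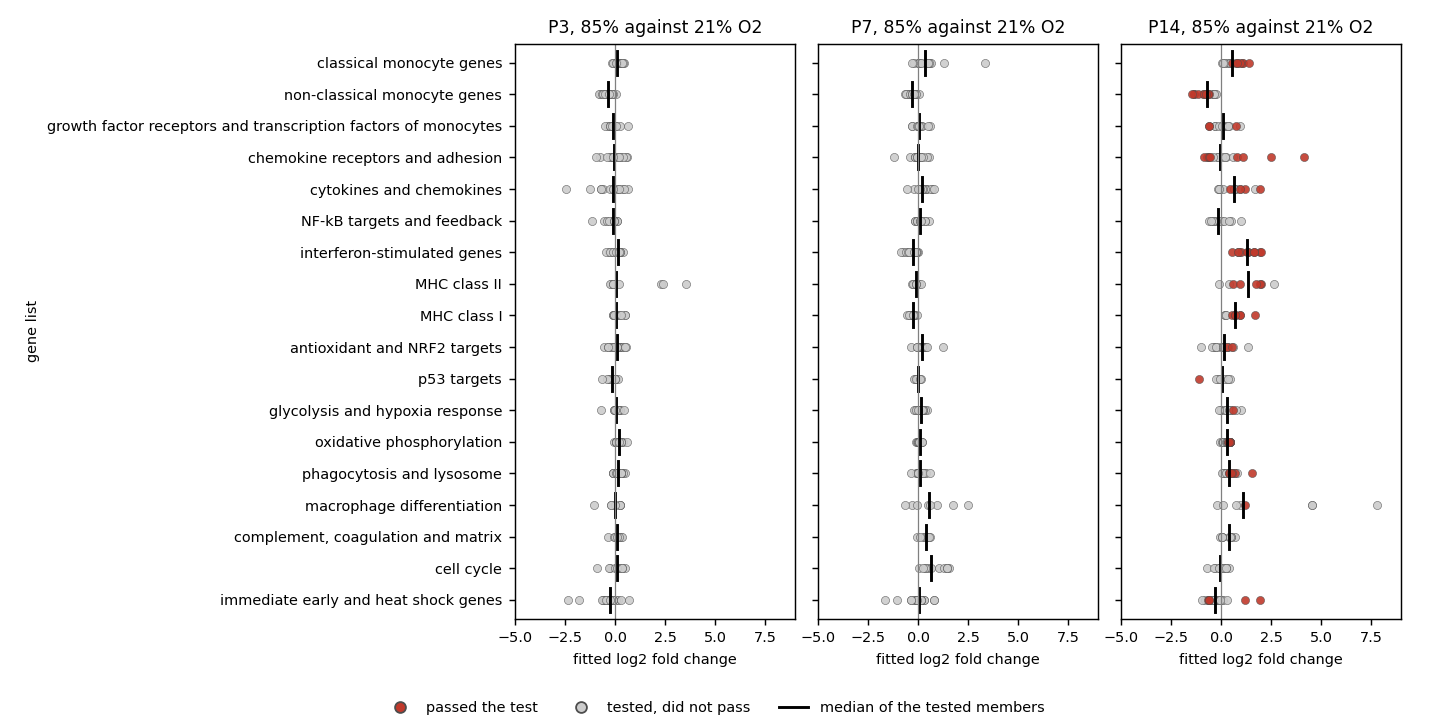
Fitted log2 fold change, hyperoxia against normoxia, of every tested member of 18 gene lists (rows) in monocytes at P3, P7 and P14 (panels). Red points passed the test and grey points did not, and the black bar is the median of a list's tested members; at P14 the interferon-stimulated genes have a median of 1.32 with 9 of 13 called, while no list has a call at P3 or P7.

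S100a8, S100a9 and Lcn2, abundant in neutrophils and also made by classical monocytes, were the 3 called genes of 6 tested neutrophil markers (3.63% of all genes rose). S100a8 lay between 113 and 426 CPM in normoxic P14 monocytes (median 340) and between 450 and 6609 CPM in hyperoxic ones (median 1445), a change of 3.02 ± 0.57 (edgeR adjusted p = 0.00058). All 11 neutrophil markers together summed to 323 to 1003 CPM in normoxic and 790 to 9838 CPM in hyperoxic P14 monocytes. The main neutrophil cluster held S100a8 at 32313 and 38043 CPM. Other genes abundant in that cluster went both ways. Retnlg had means of 4.73 CPM in normoxic and 29.8 CPM in hyperoxic P14 monocytes, with 1 hyperoxic mouse at 160 CPM and the others at 14.5 CPM or less. Stfa1 had means of 56.6 and 263 CPM, with the highest hyperoxic mouse at 1072 CPM, and Wfdc21 means of 6.58 and 99.5 CPM. G0s2 had means of 235 and 158 CPM and Csf3r of 81.4 and 91.7 CPM, while Cxcr2 and Mmp9 had 2 to 5 UMIs a group. Ly6g was at 0 UMIs, and it was at 13.3 and 32.5 CPM in the neutrophil cluster itself. In the Fcgr4+ class the markers had median sums of 907 and 1107 CPM, and in the Ly6c2+ class of 949 and 3905 CPM, in normoxic and hyperoxic mice with at least 5 such cells. The part of neutrophil RNA or cells in the S100a8 result was not tested.

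The summed markers of other cells overlapped between the oxygen groups, but single markers did not always do so. Interstitial macrophage markers summed to 2139 to 4337 CPM in normoxic and 1936 to 4148 CPM in hyperoxic P14 monocytes, and within this list the complement gene C1qb went from 0 to 13.3 CPM in normoxia to 29.0 to 460 CPM in hyperoxia. C1qb met the p threshold (4.55 ± 1.14, edgeR adjusted p = 0.01) and was not called, since under 10% of cells held a UMI of it. C1qa moved with it from a mean of 0 to 101 CPM, no UMI being found in normoxia, and C1qc from 2.79 to 59.8 CPM. The 4 tested markers of the list had a median log2 change of 4.54, 3 of them above 0 and none called. Alveolar macrophage markers summed to 333 to 633 and 222 to 497 CPM, and dendritic cell markers to 4.22 to 46.4 and 6.14 to 25.4 CPM. Alveolar type 2 cell markers summed to 783 to 1107 CPM in normoxia and 608 to 2794 CPM in hyperoxia. Their part in the P14 results was not tested.

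The P14 levels of the interferon-stimulated list were also set out by class of monocyte. Its 20 genes summed to 2545 to 4583 CPM in the Fcgr4+ cells of normoxic mice and 6250 to 9286 in those of hyperoxic mice, without overlap. In cells with neither gene the ranges were 3963 to 5216 and 7115 to 10050, also without overlap, and in the Ly6c2+ cells they were 4286 to 7000 and 5714 to 11278, with overlap. Abundant members such as Ifitm3 weigh most in such a sum. Isg15 had 1 UMI in 60 normoxic and 1 UMI in 43 hyperoxic Fcgr4+ cells. In cells with neither gene Isg15 had 9 UMIs in 197 normoxic and 24 in 220 hyperoxic cells. In Ly6c2+ cells it had 4 UMIs in 44 and 20 in 96. Nr4a1 overlapped between the oxygen groups within the Fcgr4+ class (1571 to 2750 and 1000 to 2000 CPM), and in the Ly6c2+ class it lay at 1083 to 1333 and 429 to 1444. The class II list overlapped between the oxygen groups where cells had neither Ly6c2 nor Fcgr4 (310 to 1853 against 1091 to 6200) and lay at 83.3 to 917 and 83.3 to 571 in the Fcgr4+ cells. These ranges cover mice with at least 5 cells of the class, which left 4 of 6 normoxic mice for the Ly6c2+ class and 4 of 6 hyperoxic mice for the Fcgr4+ class, and they carry no test.

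**Figure D5:**
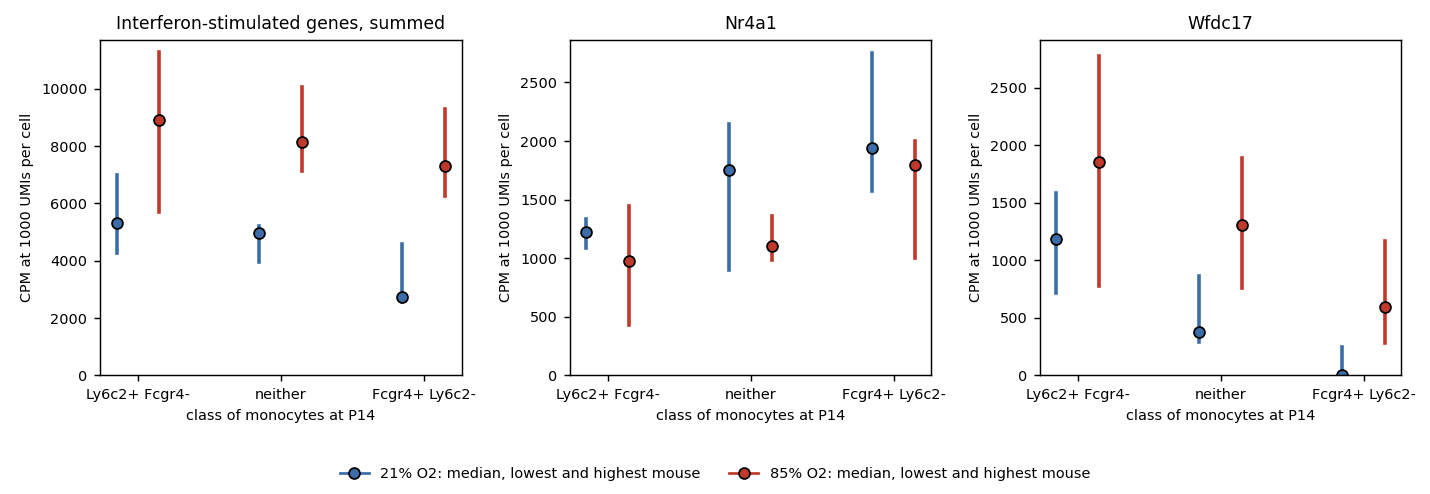
Summed level of the interferon-stimulated list, of Nr4a1 and of Wfdc17 in 3 classes of P14 monocytes, in CPM at 1000 UMIs per cell. Points are medians and lines run from the lowest to the highest mouse with at least 5 cells of the class; for the interferon-stimulated list the hyperoxic ranges lie above the normoxic ones in the Fcgr4+ class (6250 against 4583 at the nearest) and in cells with neither gene.

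Over all ages in 1 fit with age as a term, 212 of 3628 genes were called (5.84%), 114 higher (3.14%) and 98 lower (2.7%) in hyperoxia, and 325 when the pool was added as a replicate block. Without P14 pool 1 or P14 pool 2 there were 70 and 74 calls, without P3 pool 2 there were 74, without P7 pool 1 there were 247, and without the pool of P3 and P7 mice there were 343. Of 17 tested non-classical genes 13 fell and 0 rose (median -0.42 against -0.01 over all genes), and of 15 classical genes 5 rose and 0 fell (median 0.37). At P3 and at P7 16 of the 17 non-classical genes had a log2 change below 0, with medians of -0.36 and -0.30, though none passed at those ages. Wfdc17 had the smallest adjusted p (1.03 ± 0.14, edgeR adjusted p = 3.4e-05). It lay between 334 and 631 CPM in normoxic and 476 and 1417 CPM in hyperoxic mice at P3 (1.17 ± 0.23, adjusted p = 0.044), and between 424 and 878 CPM and 1008 and 2153 CPM at P14 (1.40 ± 0.23, adjusted p = 9.1e-05). The P3 call was lost without the P3 pool 2, without the P7 pool 1, without the P14 pool 1 or without the hyperoxic P7 mouse numbered 6. Hpgd fell by 1.01 ± 0.17 (adjusted p = 0.00011) and Cd36 by 0.85 ± 0.17, Hspa1b, a heat shock gene, fell by 1.56 ± 0.45, and Csf1r, the receptor that monocytes and macrophages need to survive, fell by 0.32 ± 0.06. S100a8 (1.98 ± 0.32), S100a9 (1.99 ± 0.48) and Lcn2 (1.74 ± 0.38) rose, Il1b rose by 0.58 ± 0.14, and of the interferon-stimulated list Ifi27l2a alone rose (0.58 ± 0.18), with no class I or class II gene. The calls of Ifi27l2a, Il1b, S100a9 and Hspa1b were lost without the age term and without at least 1 pool. Ifi27l2a was at 0.33 without P14 pool 1 and 0.41 without P14 pool 2 and also did not pass without P3 pool 2 or without hyperoxic P7 mouse 1 or 4. Il1b did not pass without either P14 pool, S100a9 without P14 pool 2, and Hspa1b without the pool of P3 and P7 mice, P3 pool 2 or P14 pool 1.

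With age in normoxia, 1 gene differed between P3 and P7 (0.0219%), the receptor gene Lilra6, which fell by 1.18 ± 0.23 (edgeR adjusted p = 0.032). Between P7 and P14, 279 genes differed (6.1%), 155 higher (3.39%) and 124 lower (2.71%) at P14, in mice of separate pools. Nr4a1 rose by 0.51 ± 0.13, Spn by 0.74 ± 0.17, Klf4 by 0.77 ± 0.14 and Klf2 by 0.67 ± 0.17, while Plac8 fell by 0.58 ± 0.14 and Ccr1 by 1.57 ± 0.34. Mgp and Eln, matrix genes of fibroblasts, also rose (1.97 ± 0.20 and 1.73 ± 0.24), as did the club cell gene Scgb1a1 (0.79 ± 0.19), and the hemoglobin genes Hbb-bs (-5.99 ± 1.34) and Hbb-bt (-6.94 ± 1.85) fell, and their part in these calls was not tested. In hyperoxia 3 genes differed between P3 and P7 (0.0656%), Bcl2a1d and the hemoglobin genes Hbb-bs and Hbb-bt, and none of them with the pool as replicate block (0 calls), and 109 between P7 and P14 (2.38%). Hbb-bs was at 2789 to 6552 CPM in the hyperoxic mice of P7 pool 1 and at 7.40 to 26.2 CPM in those of the pool shared with P3. Ccr2 rose from P7 to P14 in hyperoxia (1.09 ± 0.21), with Plac8 (0.57 ± 0.14) and Wfdc17 (1.15 ± 0.23), and Treml4 fell by 0.89 ± 0.18. Hbb-bs (-8.80 ± 1.37) and Hbb-bt (-7.90 ± 1.39) fell there too, and Mgp (1.37 ± 0.21) and Eln (1.03 ± 0.26) rose, and their part in these calls was not tested.

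The oxygen effect over all ages was also tested against that in macrophages of the same mice, and no pool was left out in these tests. It differed from interstitial macrophages for 95 of 4758 genes (2.0%), 55 higher (1.16%) and 40 lower (0.841%). The effect in monocytes was higher for Cd74 by 1.20 ± 0.27 (edgeR adjusted p = 0.0071), Batf3 by 1.35 ± 0.23, Ccr1 by 0.88 ± 0.19, Socs3 by 0.78 ± 0.16 and Ier3 by 0.86 ± 0.22, and lower for Cd36 by -1.31 ± 0.18 and Fabp5 by -1.48 ± 0.37. In the P14 comparison of monocytes the Cd74 change was 0.25 without pool 1 and 3.02 without pool 2. No gene of the interferon-stimulated list passed the test against interstitial macrophages. It differed from alveolar macrophages for 1431 of 7298 genes (19.6%), 679 with the higher effect in monocytes (9.3%) and 752 with the lower (10.3%). There 11 of 19 tested antioxidant genes, 5 of 14 p53 targets, 8 of 19 glycolysis genes and 12 of 18 genes of phagocytosis and the lysosome had a lower effect in monocytes, among them Hmox1 (-1.66 ± 0.28), Fth1 (-1.42 ± 0.07), Mdm2 (-0.67 ± 0.15) and Cdkn1a (-0.66 ± 0.12). The cell cycle genes Cenpa, Stmn1, Hmgb2, Tubb5 and H2afz (5 of 20) had a higher effect in monocytes, by 0.88 ± 0.14 to 1.75 ± 0.37, as did Fcgr1 (1.45 ± 0.18), Psmb8 (0.65 ± 0.12) and Ifi27l2a (1.20 ± 0.26).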

How the data were processed

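The authors sequenced 6 droplet libraries (10x 3' chemistry), aligned them with CellRanger 3.0.2 to mm10 with 25000 expected cells, assigned cells to mice by sample barcode and removed barcode doublets. They kept cells with more than 200 genes and at most 20% mitochondrial UMIs and clustered them with Seurat. The deposited files hold UMI counts, not normalized, and a cell annotation with cell type, mouse, age, oxygen and the percent of mitochondrial UMIs, deposited as computed by the authors. No doublet caller was run here.

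Counts were summed per mouse over its monocytes, with mice of under 10 monocytes left out, and tested with edgeR 4.0.16 (quasi-likelihood test, R 4.3.3, Benjamini-Hochberg adjustment over all genes tested). A call needed an adjusted p below 0.05 and detection in 10% of cells. Fold changes are fitted log2 values with their SE. Shares were compared between mice with exact permutation tests, two-sided, whose smallest p for 6 against 6 mice is 0.00216, and differences between ages with 100000 permutations. Monocyte UMIs per mouse ranged from 36135 to 760991. The mice were separate animals. Replicate numbers 1 to 3 and 4 to 6 mark the pools, so the pool served as the replicate block. The upper limit given for a class with no cell covers counting error only, while SDs are over mice and SEs come from the edgeR fit. The procedures were tested on simulated counts that held no pool effect. Of genes changed 1.5-fold, 15 of 65 were recovered at P14 (23.1%) and 27 of 67 at P7 (40.3%). Of those changed 2-fold, 52 of 65 (80%) and 59 of 66 (89.4%) were recovered. Modest changes can therefore be missed at a single age.

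Genes are named by a rule: the 5 markers, the 2 members of each list with average log2 CPM of at least 5 and the smallest adjusted p over all ages, the 3 largest called increases and decreases in each contrast at that level, and other called list members. Genes named outside it, such as Lyz2, were chosen after their values were seen. The members and lists were chosen with earlier results of these data known. Alternatives were DESeq2 1.42.0, no criterion on detection, equal depth by thinning the summed counts of a mouse, a replicate block and mice or pools left out. The pools left out were chosen after seeing the data. Some genes of the lists are counted in them but not reported here.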

Additional observations from a re-analysis of the deposited data

Results flagged for a closer look

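Single mice stood apart from the others of their group in 14 of 144 groups of 4 to 6 mice examined, where chance gives about 1 in 20. Ly6c2 was at 558 CPM in normoxic P3 mouse 2, at 229 CPM in hyperoxic P7 mouse 3 and at 863 CPM in hyperoxic P14 mouse 3. Among normoxic P14 mice, mouse 2 stood apart for Fabp4 (11.98 CPM) and Ccl2 (204 CPM), mouse 3 for Wfdc21 (28.7 CPM), mouse 4 for Hpgd (776 CPM) and Gbp3 (16.6 CPM, only 3 UMIs), and mouse 5 for Ace (189 CPM) and Ccl6 (1102.5 CPM). Among hyperoxic P14 mice, mouse 2 stood apart for Cd74 (2235 CPM) and H2-Ab1 (1179 CPM), mouse 1 for Cox8a (826 CPM) and mouse 5 for Crip1 (3150 CPM).

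The oxygen effect differed between ages by the test of the difference itself (edgeR adjusted p below 0.05). Against P3 the effect of P14 was larger for Ctsc by 1.04 on the log2 scale. Against P7 it was larger for Ctsc (1.20), Ccr1 (1.94), Ifi27l2a (1.73), Bst2 (1.41), Psmb8 (1.14), Ctss (0.53), Gbp2 (4.26), Gbp3 (3.73), Ifi47 (3.49), Oas3 (2.88) and Fabp5 (1.85), and it was lower for Hmox1 (-2.27), Hsd11b1 (-1.81) and Spire1 (-1.60). Gbp2 and Gbp3 had few UMIs in normoxic P14 mice.

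The effect over all ages differed between monocytes and macrophages of the same mice by the same kind of test. Against interstitial macrophages it was higher in monocytes for Wfdc21 (3.08), Chil3 (2.15) and Batf3 (1.35) and lower for Fabp5 (-1.48), Clec4d (-1.39) and Cd36 (-1.31). Against alveolar macrophages it was higher for Wfdc21 (2.68), Slpi (2.41) and Rnase6 (2.30) and lower for Itgam (-3.98), Slc11a1 (-3.36) and Ccl2 (-3.06).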

How the results depend on the processing

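At P14, 321 genes were called, and leaving out each P14 or hyperoxic P7 mouse in turn gave 223 to 344, 25 monocytes from every mouse 179, and the pools left out 25 (P14 pool 1) and 163 (P14 pool 2). For the other counts only the hyperoxic P7 mice, the group of 5, were left out in turn. Over all ages this gave 209 to 272 calls, no age term 101, pool as replicate block 325, and the pools left out 343 (P3 and P7), 74 (P3 pool 2), 247 (P7 pool 1), 70 (P14 pool 1) and 74 (P14 pool 2). At P3 it gave 0 to 1 calls, DESeq2 12, equal depth 2, no filter on low counts 30, and the pools left out 33 (the pool of P3 and P7) or 0 (P3 pool 2, P7 pool 1 or P14 pool 1). At P7 it gave 0 to 0 calls, no filter 52, 25 monocytes 2, and without the shared pool 2. For the difference of P14 from P3, DESeq2 gave 11, no filter 69 and the replicate block 26, and for that from P7, no filter gave 112 and the block 97. Between P7 and P3 in normoxia DESeq2 gave 2, no filter 67 and the block 8, and in hyperoxia no filter gave 31 and the block 0. Without a filter 213 genes differed between P14 and P7 in hyperoxia, 347 between the classes, 16 within each class and 146 from interstitial macrophages. Without it 72.4% of the P14 calls were higher against 51.7% with it, 65.2% against 53.8% over all ages, and 17.8% against 55.6% for P14 against P7 in normoxia. The causes were not tested.

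Directions turned for some values that did not pass the test. At P3 without P3 pool 2, Ly6c2 was at -0.21, Ccr2 at -0.030 and Ace at 0.0037, and Fcgr4 was at -0.15 with equal depth and -0.030 without the shared pool. At P7 Ccr2 was at -0.0096 by DESeq2, -0.018 with equal depth, from -0.098 to 0.19 when a hyperoxic P7 replicate was left out and -0.044 without P7 pool 1. Thinned to 2000 UMIs, the P3 differences were -2.53 points for Fcgr4+ cells, 1.61 for both and 2.66 for neither, and at P7 -1.71 for Ly6c2+ cells and 0.307 for both. No class difference at P14 passed the test at 2000 UMIs or with the pool as replicate block. Without thinning the P3 difference for both was 1.82, and at P14 the differences passed the test at 17.4, -19.0 and 11.6 for Ly6c2+, Fcgr4+ and both. With Ly6c2 or Ccr2 against Fcgr4 or Ace, chosen after seeing the data, the differences at P3 were 0.397, -0.0574 and 0.461 for the 3 classes, and past the test, with no turn in direction, at P7 -3.32 for both and at P14 22.8 and -16.9 for Ly6c2+ and Fcgr4+ cells. That split uses Ly6c2, Ccr2 and Ace, which were called at P14 themselves. No replicate block was fitted for levels at P14 against P7 within an oxygen group, since no pool holds both ages. Pools of 3 against 3 mice, about 26 to 135 monocytes per mouse fitted and the lower depth of normoxic P14 monocytes limit what these data can show.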

Other observations

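Between P7 and P14 in normoxia, genes of glycolysis and the early response changed in monocytes of separate pools. Of 14 tested glycolysis and hypoxia genes 5 fell (Aldoa, Gapdh, Pgk1, Pkm and Ldha) and 0 rose, with a median log2 change of -0.52 against 0.01 over all genes. Pgk1 fell by 0.66 ± 0.15 (edgeR adjusted p = 0.0052) and Aldoa by 0.55 ± 0.14 (adjusted p = 0.01). Of 23 tested immediate early and heat shock genes 6 rose (Fos, Fosb, Dusp1, Nr4a1, Klf2 and Klf4) and Ier3 fell, where 3.39% of all genes rose and 2.71% fell. Fibroblast (Mgp, Eln), club cell (Scgb1a1) and erythrocyte (Hbb-bs, Hbb-bt) markers also changed in this contrast, and their part was not tested. Fosb, a subunit of the AP-1 factor, rose by 1.26 ± 0.28 (adjusted p = 0.0044). Chil3, a chitinase-like protein of myeloid cells, rose by 4.23 ± 0.82 (adjusted p = 0.0013).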
